A study of Rattus norvegicus with 2 samples.

Results

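The genes described here encode the mitochondrial respiratory chain and ATP synthase. Members were chosen by symbol, with no measured value used: rat symbols starting with Nduf, Uqcr, Atp5 or Cox followed by a digit from 4 to 8, plus Sdha to Sdhd and Cyc1. Of 15443 named genes with a probe on the array, 83 were members, 82 of them protein-coding and 1 the transcribed pseudogene Cox6c-ps1. They comprised 32 complex I genes, 6 complex I assembly factors, 4 complex II genes, 8 complex III genes, 17 complex IV genes and 16 complex V genes. A further 37 protein-coding symbols that meet the rule, among them Cyc1, Ndufs6, Ndufa8, Ndufa13, Cox7a1, Ndufa4l2 and Atp5mc3, matched no probe by accession and were not analysed here. Of the 83 members, 82 passed the filter on each array, which asks for a signal well above background in at least 1 channel. The member left out was Cox8c, the testis isoform of oxidase subunit 8, which was not well above background on either array. Cox8b passed only through its brighter channel on each array, and the other 81 members were well above background in both channels.

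Complexes I and II pass electrons from NADH and succinate to ubiquinone, complex III passes them on to cytochrome c, and complex IV, cytochrome c oxidase, hands them to oxygen. Complexes I, III and IV pump protons across the inner membrane, and ATP synthase, complex V, uses the returning protons to make ATP. Neural precursors rely largely on glycolysis, and differentiating neurons depend more on this chain. A few subunits of complex IV exist as isoforms made by different genes, and some of these are the forms of heart and skeletal muscle.

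Total RNA of primary neural stem cells from the cortex of SD Rat embryos at E14 was hybridised to 2 two-colour Agilent arrays. On the withdrawal array, red (Cy5) was labelled as cells carrying the empty vector MSCV-IRES-EGFP without bFGF, held for 2 days in NB medium, and green (Cy3) as cells carrying the same vector in N2 medium with bFGF. On the second array, called the array labelled Bcl-2, red was labelled as cells carrying rBcl-2-MSCV-IRES-EGFP with bFGF, and green again as the vector cells with bFGF. All cells had first been cultured with 10 ng/mL bFGF (basic fibroblast growth factor, a mitogen of precursors), and all had been transfected transiently with 4 µg of plasmid. No sorting of transfected cells is described, so each RNA may mix cells with and without plasmid. By the labels, the vector with bFGF is the shared control of both arrays. Each comparison has 1 array, no replicate and no dye swap, so there is no test and no p-value, and each value describes these arrays alone. In such bulk RNA, fewer cells of a type and less RNA per cell cannot be told apart.

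Median net signals were 284.5 in red and 189 in green on the withdrawal array, and 266 in red and 201 in green on the array labelled Bcl-2, where 66.1% to 72.0% of spots were well above background over the 4 channels. The precursor markers Nes and Sox2 were well above background in every channel, and 10 of 10 precursor markers passed the filter on the withdrawal array and 9 of 10 on the other. It is not settled which way the ratios run, nor whether each channel held the RNA of its label. Ratios of the 2 arrays, labelled with a shared control and the same dye orientation, correlated at r = -0.67 over 42877 gene spots (-0.12 with the scanner software's own ratio). The channel levels of 229 member spots were set against each other as well. Between the green control of the array labelled Bcl-2 and the red channel without bFGF the log2 difference had an SD of 0.10, and between the 2 green controls an SD of 0.22. Over 26861 gene spots of all genes these SDs were 0.14 and 0.40. Red Bcl-2 less the green control of the withdrawal array had an SD of 0.15 there, and less red without bFGF 0.38. Whether a channel held another RNA than its label was not tested. Log2 ratios below are red over green as labelled, and with the sign of an array turned every value, count and rank of that array changes side.

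On the withdrawal array most members lay slightly above 0, that is, higher in the channel labelled without bFGF. The median log2 ratio of the 82 members was 0.12 (-0.12 with the sign turned), against 0.03 over all 10852 genes and 0.01 over the 25% of genes with the brightest signal, which hold 71 of the 82 members. The quartiles of the members ran from -0.00 to 0.26, against -0.16 to 0.25 over all genes. In all, 61 of 82 members (74.4%) lay above 0 and 21 (25.6%) below, against 54.2% above and 45.8% below over all genes, and with the sign turned 21 lie above and 61 below. Large differences were few: 5 members (6.10%) were at or above 0.5, a 1.41-fold difference, against 10.4% of all genes, and 0 were at or below -0.5, against 4.52%. Over the brightest 25% of genes these shares were 7.81% and 5.57%, so the member share at or above 0.5 is near that of genes as bright. The 5 include Cox8b, which passed the filter only through red. The scanner software's ratio put 7 at or above 0.5 and 2 at or below -0.5. Only Cox6a2 was at least 2-fold higher, against 2.42% of all genes and 1.55% of the brightest 25%. At least 2-fold lower were 0 members, against 0.47% and 0.92%. The comparison at 0.5 depends on the normalization: with median centring without loess, 36 members (43.9%) were at or above 0.5, against 20.9% of all genes. With the sign turned, 0 members are at or above 0.5 and 5 at or below -0.5, and Cox6a2 is at least 2-fold lower.

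On the array labelled Bcl-2 most members lay slightly below 0, that is, lower in the channel labelled Bcl-2. The median was -0.15 (0.15 with the sign turned), against -0.01 over all 10241 genes and -0.03 over the brightest 25%. In all, 15 members (18.3%) lay above 0 and 67 (81.7%) below, against 48.2% above and 51.8% below over all genes, and with the sign turned 67 lie above and 15 below. At or above 0.5 were 0 members, against 3.53% of all genes, and at or below -0.5 were 4 members (4.88%), against 8.7%. Over the brightest 25% of genes these shares were 3.71% and 8.24%. The 4 include Cox8b, which passed the filter only through green. Cox6a2 was again the only member past 2-fold, here lower, against 2% of all genes and 1.76% of the brightest 25%. At least 2-fold higher were 0 members, against 0.557% and 0.703%. With the sign turned, 4 members are at or above 0.5 and 0 at or below -0.5, and Cox6a2 is at least 2-fold higher. Without loess, with each array only centred on its median, the members' median less that of all genes was 0.01 on this array in place of -0.14, and 0.31 on the withdrawal array in place of 0.09. By the labels the 2 arrays share their control, so the opposite sides of 0 are given side by side and not as 2 separate results.

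**Figure D1:**
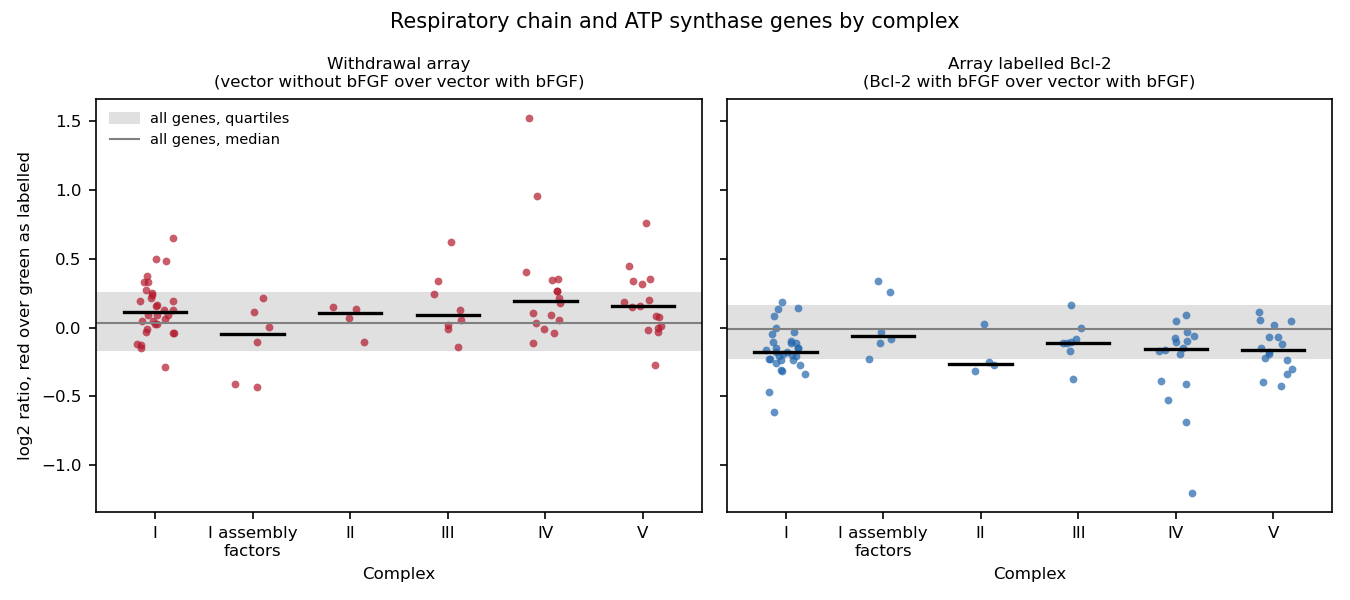
Log2 ratio of red over green (y axis) for each of the 82 measured members, by complex (x axis), with the withdrawal array on the left and the array labelled Bcl-2 on the right. Points are genes, black lines are the medians of a complex, and the grey band and line are the quartiles and median of all genes. Most points sit just above 0 on the left (median 0.12) and just below 0 on the right (median -0.15), and Cox6a2 stands farthest from 0 on both.

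Error could be judged only within an array. The 15 members with a probe printed more than once, with up to 10 spots each, had a pooled spot SD of 0.041 on the withdrawal array and 0.038 on the array labelled Bcl-2. Of these 15, 10 on the withdrawal array and 12 on the array labelled Bcl-2 had a mean more than 2 of their own spot SDs from 0, against 75.4% and 77.1% of all gene probes printed more than once, so their shares are near the background. Different probes of a gene disagreed by more: over the 18 members with at least 2 probes, the pooled SD between probes was 0.153 and 0.167. Probes disagreed in sign for 6 of these 18 members on the withdrawal array and for 4 on the array labelled Bcl-2. The widest spread was that of Cox6b1, with probes at -0.34, 0.05 and 0.13 on the withdrawal array and at 0.39, -0.15 and -0.19 on the other. These spreads are those of single probes and genes, not errors of a median over the members, and no array-to-array error could be had. The other 65 members rest on 1 probe each.

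**Figure D2:**
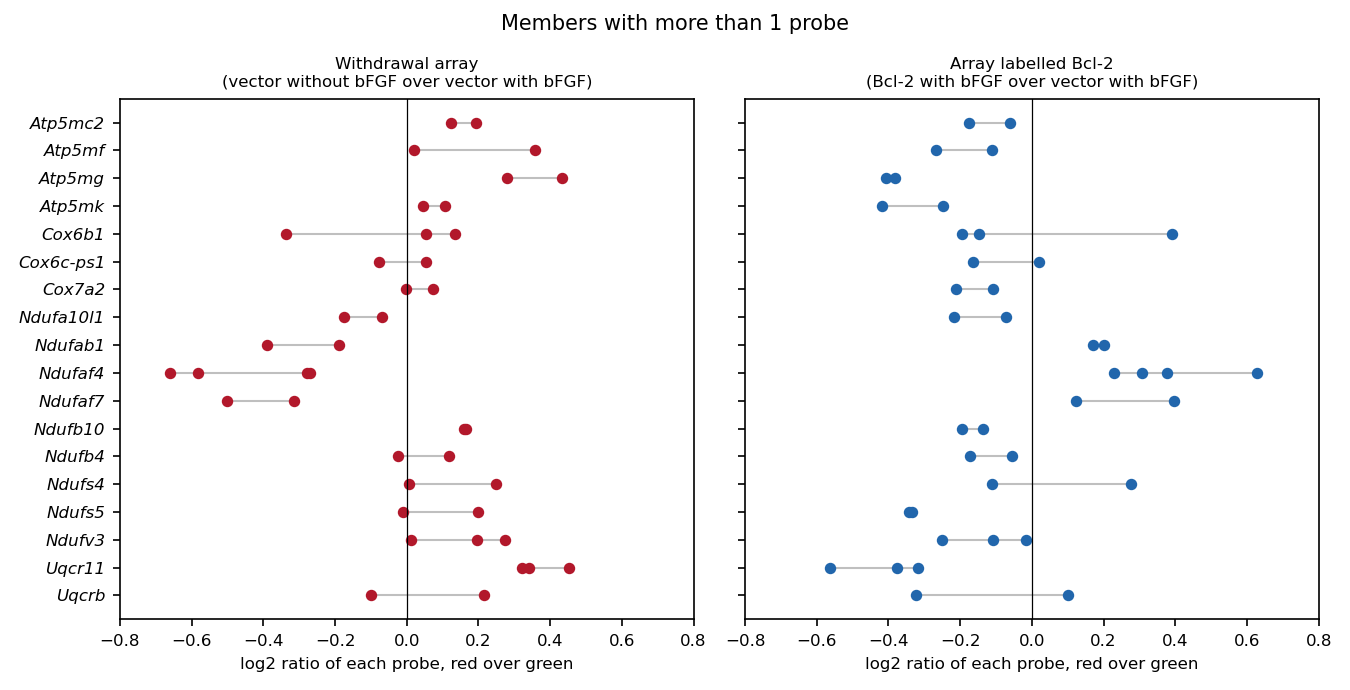
Log2 ratio of each probe (x axis) for the 18 members with more than 1 probe (y axis), with the withdrawal array on the left and the array labelled Bcl-2 on the right. Points are probes and grey lines join the lowest and highest probe of a gene. The probes of Ndufaf4 and Ndufaf7 lie all below 0 on the left and all above 0 on the right, the 3 probes of Uqcr11 the other way round, and those of Cox6b1 lie on both sides.

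Promoters were searched for motifs of factors known to drive many respiratory chain genes: the NRF1 motif, the ETS family motif that GABP binds (CCGGAAG) and the YY1 motif (AAGATGGCG). The letters TATAAA of a core promoter and the E-box letters (CANNTG) were searched beside them, all on both strands, in the window from 250 bases before to 50 bases after the start, as RefSeq gives it for GRCr8. Of the 73 members matched to this table, 14 (19.2%) held the NRF1 motif, 22 (30.1%) the ETS motif and 10 (13.7%) the YY1 motif, and 40 (54.8%) held at least 1 of them. Over all 33469 promoters the shares were 4.25%, 8.75%, 1.73% and 13.4%. That background took every promoter whatever the type of gene, so it need not be a like set for these protein-coding members. The letters TATAAA, called the TATA motif here, stood in 5 members (6.85%) against 14.2% of all promoters, and the E-box in 47 (64.4%) against 72.1%. Median GC content was 56% in members and 51.7% in all promoters. None of the 13 matched complex IV promoters held the NRF1 or the YY1 motif as searched, and 4 held the ETS motif. Medians were also taken over members with and without a motif. For NRF1 they were 0.13 with and 0.13 without on the withdrawal array, and -0.11 with and -0.17 without on the array labelled Bcl-2. For ETS the medians were 0.15 with and 0.11 without on the withdrawal array, and -0.16 and -0.13 on the other. For YY1 they were 0.12 with and 0.13 without on the withdrawal array, and -0.11 and -0.15 on the other. For the E-box they were 0.15 with and 0.09 without on the withdrawal array, the widest gap of the 4 motifs there, and -0.16 and -0.11 on the other.

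The promoters of 5 members are shown because these genes carry the contrasts described next: the muscle isoforms Cox6a2 (chr1:192219667-192219966, minus strand) and Cox8b (chr1:205408224-205408523, minus strand), the widely expressed Cox8a (chr1:213833574-213833873, minus strand), the ATP synthase gene Atp5me (chr14:1464610-1464909, plus strand) and the assembly factor Ndufaf4 (chr5:43401545-43401844, plus strand). Each is 300 bases, written 5′ to 3′ along the strand of the gene, with capitals for letters that match the NRF1, ETS, YY1 or TATA motif. Cox6a2 has no match, Cox8b 1 TATA match, Cox8a 2 ETS matches, Atp5me 1 NRF1 and 1 ETS match, and Ndufaf4 1 NRF1 match. A match is a run of letters and not a measured site, and no motif overlaps another in these 5 windows.
Cox6a2: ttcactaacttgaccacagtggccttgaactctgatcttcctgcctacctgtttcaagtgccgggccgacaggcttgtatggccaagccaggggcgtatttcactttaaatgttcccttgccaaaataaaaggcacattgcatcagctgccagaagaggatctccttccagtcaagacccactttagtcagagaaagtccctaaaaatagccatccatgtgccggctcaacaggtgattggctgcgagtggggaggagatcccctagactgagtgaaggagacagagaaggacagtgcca
Cox8b: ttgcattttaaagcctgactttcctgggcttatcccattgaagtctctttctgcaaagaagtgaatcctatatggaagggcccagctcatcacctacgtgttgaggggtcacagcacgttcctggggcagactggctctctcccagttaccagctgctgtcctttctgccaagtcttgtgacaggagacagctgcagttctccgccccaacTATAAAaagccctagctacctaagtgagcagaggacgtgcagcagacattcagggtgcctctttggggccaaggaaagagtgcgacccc
Cox8a: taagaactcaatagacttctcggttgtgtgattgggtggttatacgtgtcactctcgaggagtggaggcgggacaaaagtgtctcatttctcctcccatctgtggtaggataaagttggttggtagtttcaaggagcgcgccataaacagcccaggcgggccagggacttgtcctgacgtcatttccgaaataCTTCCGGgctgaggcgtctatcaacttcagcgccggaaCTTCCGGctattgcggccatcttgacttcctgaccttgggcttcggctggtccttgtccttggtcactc
Atp5me: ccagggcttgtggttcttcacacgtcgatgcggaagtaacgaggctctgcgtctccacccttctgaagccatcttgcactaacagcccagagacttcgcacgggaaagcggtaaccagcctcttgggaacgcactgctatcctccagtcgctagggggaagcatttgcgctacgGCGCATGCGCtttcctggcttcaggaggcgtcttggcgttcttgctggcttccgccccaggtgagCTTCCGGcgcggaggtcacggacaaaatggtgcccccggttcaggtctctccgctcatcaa
Ndufaf4: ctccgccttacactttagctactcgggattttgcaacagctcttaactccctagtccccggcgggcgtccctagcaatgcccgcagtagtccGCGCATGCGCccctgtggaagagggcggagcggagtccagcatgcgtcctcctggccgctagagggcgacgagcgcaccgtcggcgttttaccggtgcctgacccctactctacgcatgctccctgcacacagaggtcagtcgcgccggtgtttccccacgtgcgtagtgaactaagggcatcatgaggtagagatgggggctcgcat

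Cytochrome c oxidase, complex IV, held the members farthest from 0, and these were the isoforms of striated muscle. Cox6a2, the heart and skeletal muscle form of subunit 6a, had log2 intensities of 8.67 in red without bFGF and 7.14 in green on the withdrawal array, and of 7.28 in red Bcl-2 and 8.48 in green on the array labelled Bcl-2. Its log2 ratios were 1.53 and -1.20, the 81st highest of 10852 genes and the 124th lowest of 10241, and with the scanner software's ratio 2.36 and -2.73. The 2 bright channels were thus red without bFGF and the green control of the other array. Cox8b, the muscle form of subunit 8, had log2 intensities of 7.59 in red and 6.63 in green on the withdrawal array, and of 6.78 in red and 7.47 in green on the array labelled Bcl-2. Its dim channel was not well above background on either array, so the folds are bounds: on the withdrawal array red was at least 1.95-fold higher, and on the other green was at least 1.61-fold higher, both open to dye bias. The dim level in each bound is that of the spot itself or, if higher, the dimmest one still well above background. Cox6a2 and Cox8b rest on 1 probe and 1 spot each.

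The other tissue isoforms did not share so large a difference. Cox4i2, the lung form of subunit 4, which responds to low oxygen, was at 0.27 on the withdrawal array and 0.09 on the array labelled Bcl-2. Cox6b2, the testis form of subunit 6b, was at 0.21 and -0.10. No median is given over the tissue isoforms, since Cox8b passed the filter only where it is bright. The 5 widely expressed isoforms, of which Cox7a2 has no measured tissue counterpart, had medians of 0.11 and -0.16 (-0.11 and 0.16 with the signs turned). Among them, Cox6a1 stood at 0.11 and -0.19, Cox4i1 at 0.34 and -0.06, Cox7a2 at 0.04 and -0.16 and Cox6b1 at 0.05 and -0.15. Cox8a, the widely expressed form of subunit 8, had log2 intensities of 15.75 in red and 15.39 in green on the withdrawal array, and of 15.35 in red and 15.88 in green on the array labelled Bcl-2. Its ratios were 0.36 ± 0.03 and -0.52 ± 0.02 (SD over 9 spots on each array), more than 2 spot SDs from 0. It was 1 of the 4 members at or below -0.5 on the array labelled Bcl-2, with Cox6a2, Cox8b and Ndufa10.

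A list of striated muscle markers was added after Cox6a2 and Cox8b had been seen to lead. On the withdrawal array its measured genes lay on the side of these 2, and on the array labelled Bcl-2 on both sides of 0. Of its 14 genes, 8 were well above background in both channels of the withdrawal array, all 8 above 0 with 2 at or above 0.5 and a median of 0.34. A further 3 (Myh3, Tnnt3 and Des) passed there only through red, so they are not counted. On the array labelled Bcl-2, 9 were well above background in both channels, 5 above 0 and 4 below with 2 at or below -0.5, and the median was 0.01, while Tnnt3 passed only through green. The genes past 0.5 were the myosin heavy chain genes Myh6 at 0.77 and -0.88 and Myh7 at 0.75 and -0.56 on the 2 arrays. On the array labelled Bcl-2, Tnnt2 at 0.08, Acta1 at 0.07, Mb at 0.04, Myog at 0.02 and Tnnc1 at 0.01 lay above 0, the side away from Cox6a2. The muscle genes Ckm, Myod1 and Tnni1 were not well above background. The fibroblast and meninges markers well above background in both channels had medians of 0.65 (4 genes) and -1.71 (3 genes), with the smooth muscle actin gene Acta2 at 2.19 and -1.93. The part of other cell types in the values of Cox6a2 and Cox8b was not tested.

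The rest of complex IV ran from -0.11 to 0.41 on the withdrawal array and from -0.41 to 0.05 on the array labelled Bcl-2. Cox7a2l, which links complexes III and IV in supercomplexes, was at 0.41 on the withdrawal array and -0.39 on the array labelled Bcl-2, and Cox5b, a nuclear subunit facing the matrix, at 0.27 and -0.41. Cox6c stood at 0.18 and -0.17, Cox7b at 0.09 and 0.05, Cox7c at -0.04 and -0.03, Cox5a at -0.11 and -0.10 and the pseudogene Cox6c-ps1 at -0.01 and -0.07. Of the 16 measured genes of the complex, 13 were above 0 on the withdrawal array with a median of 0.20, and 14 were below 0 on the array labelled Bcl-2 with a median of -0.15 (-0.20 and 0.15 with the signs turned). These counts and medians include Cox8b, which passed the filter only through its bright channel on each array. The oxidase subunits encoded by mitochondrial DNA are outside the rule.

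**Figure D3:**
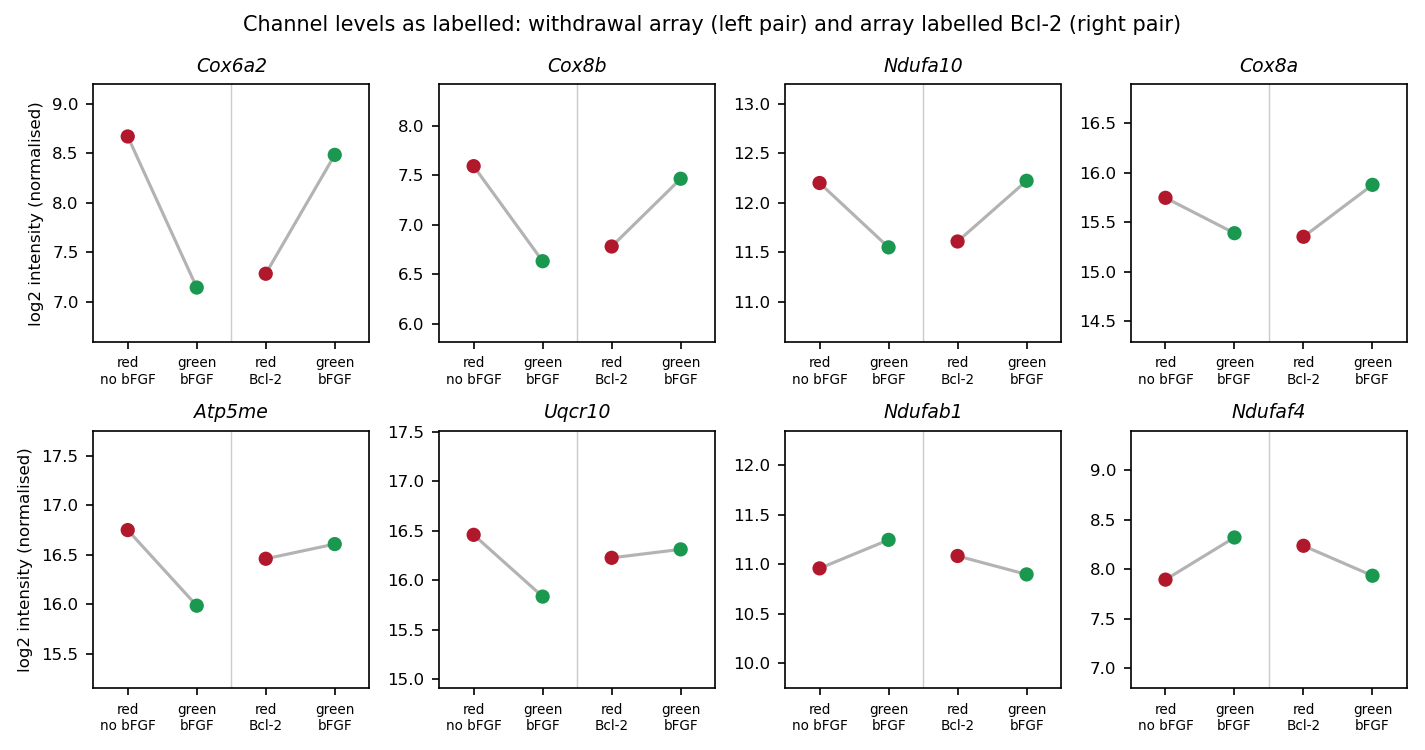
Normalised log2 intensity (y axis) in the 4 channels (x axis) for 8 members, with the withdrawal array as the left pair and the array labelled Bcl-2 as the right pair, red before green in each. Points are channel levels (medians over probes), and each panel spans the same range on the log2 scale around its own middle. For Cox6a2, Cox8b and Ndufa10 the outer channels are the high ones, and for Ndufaf4 and Ndufab1 the inner ones.

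Complex I, NADH dehydrogenase, had 24 of its 32 subunit genes above 0 on the withdrawal array with a median of 0.11, and 28 of 32 below 0 on the array labelled Bcl-2 with a median of -0.18 (-0.11 and 0.18 with the signs turned). Ndufa10, a supernumerary subunit of the membrane arm, was the member farthest from 0 after the muscle isoforms when both arrays are averaged with the second turned. Its log2 intensities were 12.20 in red and 11.55 in green on the withdrawal array, and 11.61 in red and 12.22 in green on the array labelled Bcl-2. The ratios were 0.65 and -0.61, the 704th highest and the 619th lowest gene, and they rest on 1 probe. Its paralogue Ndufa10l1 stood at -0.12 and -0.15, and RNA of such related copies can cross-hybridise.

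The 7 core subunits of complex I, which carry the flavin, the iron-sulphur clusters and the quinone site, had medians of 0.05 and -0.18, and the 25 supernumerary subunits, which surround the core, 0.13 and -0.17. With the signs turned these are -0.05 and 0.18 for the core and -0.13 and 0.17 for the supernumerary subunits. Among the core genes, Ndufv1, which binds NADH and the flavin, was at 0.13 on the withdrawal array and -0.47 on the array labelled Bcl-2, just short of the limit of -0.5. Its neighbour in the NADH module Ndufv2 was at 0.16 ± 0.04 and -0.26 ± 0.03 (SD over 10 spots on each array), and Ndufs1, the largest iron-sulphur subunit, at 0.03 and 0.14. Genes of the quinone module stood at 0.28 and -0.18 for Ndufs7, at 0.05 and -0.15 for Ndufs8 and at -0.04 and -0.18 for Ndufs3.

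Several small supernumerary subunits were farther out than the core on the withdrawal array. Ndufa1, a membrane-arm subunit, stood at 0.50 and -0.21, just under the 0.5 limit before rounding and not counted. Ndufb2 stood at 0.48 and -0.31, Ndufb7 at 0.33 and -0.20 and Ndufa12 at 0.33 and -0.15. Ndufb3, printed 10 times, was at 0.37 ± 0.03 and -0.23 ± 0.02 (SD over 10 spots on each array). Ndufs5 stood at 0.09 and -0.34 and Ndufa4, filed here by its symbol and now counted as an oxidase subunit, at 0.10 and -0.31. The lowest subunit gene of complex I on the withdrawal array and the highest on the other was Ndufab1, the mitochondrial acyl carrier protein, which also serves fatty acid synthesis. Its log2 intensities were 10.96 in red and 11.25 in green on the withdrawal array, and 11.08 in red and 10.90 in green on the array labelled Bcl-2. Its 2 probes read -0.19 and -0.39 on the withdrawal array and 0.20 and 0.17 on the other, with gene values of -0.29 and 0.19, so its high and low channels are the other way round from those of Ndufa10. The other 15 supernumerary genes ran from -0.15 for Ndufb5 to 0.25 for Ndufa2 on the withdrawal array, and from -0.27 for Ndufb9 to 0.13 for Ndufa5 on the array labelled Bcl-2. Of these, Ndufs4 (0.13 and 0.08) had probes on both sides of 0 on the array labelled Bcl-2.

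The assembly factors of complex I, which help build it and are not part of the finished enzyme, had values on both sides of 0. Over the 6 measured factors the medians were -0.05 and -0.06 (0.05 and 0.06 with the signs turned), with 3 above 0 on the withdrawal array and 4 below 0 on the array labelled Bcl-2. These medians changed side with the processing. The withdrawal median was 0.20 with median centring without loess and 0.05 with the authors' value table. On the array labelled Bcl-2 it was 0.01 with the scanner software's ratio. Ndufaf4 was the lowest of all members on the withdrawal array and the highest on the other. Its 4 probes read -0.66, -0.58, -0.28 and -0.27 on the withdrawal array and 0.23, 0.31, 0.38 and 0.63 on the array labelled Bcl-2, and the gene values were -0.43 and 0.34, the 696th lowest and the 904th highest gene. Every probe lay on the same side within each array, and the probes differed among themselves by more than the pooled SD between probes. Ndufaf7, a mitochondrial methyltransferase, stood at -0.41 (probes -0.50 and -0.31) and 0.26 (probes 0.40 and 0.12). The other 4 factors lay nearer 0: Ndufaf3 at 0.21 and -0.23, Ndufaf8 at 0.11 and -0.03, Ndufaf5 at 0.01 and -0.11 and Ndufaf1 at -0.11 and -0.08.

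Complex II, succinate dehydrogenase, also belongs to the citric acid cycle and pumps no protons. Sdha, the flavin subunit, stood at 0.07 on the withdrawal array and 0.03 on the array labelled Bcl-2, and Sdhb, the iron-sulphur subunit, at 0.15 and -0.27. The membrane anchors stood at 0.14 and -0.25 for Sdhc and, over 10 spots, at -0.10 ± 0.03 and -0.31 ± 0.03 (SD) for Sdhd. The medians over the 4 genes were 0.11 and -0.26 (-0.11 and 0.26 with the signs turned), with 3 of 4 above 0 on the withdrawal array and 3 of 4 below 0 on the other. Sdhd lay below 0 on both arrays, and Sdha above 0 on both.

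In complex III, the cytochrome bc1 complex, the small subunits lay higher than the large ones on the withdrawal array. The core proteins Uqcrc1 and Uqcrc2 stood at 0.02 and -0.01 there and at -0.11 and -0.17 on the array labelled Bcl-2, and Uqcrfs1, the Rieske iron-sulphur protein, at -0.14 and 0.17. Of the 5 small subunits, Uqcr10 had log2 intensities of 16.46 in red and 15.84 in green on the withdrawal array, and of 16.23 in red and 16.31 in green on the array labelled Bcl-2. Its ratios were 0.62 and -0.09, so it was far from 0 on 1 array alone. The 3 probes of Uqcr11 read 0.34, 0.32 and 0.45 on the withdrawal array and -0.56, -0.32 and -0.38 on the other. Uqcrh stood at 0.25 and -0.11, Uqcrq at 0.13 and 0.00, and Uqcrb at 0.06 and -0.11 with probes that disagreed in sign on both arrays. The median of the 3 large subunits was -0.01 and -0.11, and that of the 5 small ones 0.25 and -0.11 (-0.25 and 0.11 with the signs turned).

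The parts of ATP synthase differed in their medians, with no test made. The 5 genes of the F1 head, which makes ATP, had medians of 0.01 and 0.02. The catalytic subunits Atp5f1a and Atp5f1b stood at 0.15 and -0.01 on the withdrawal array and at 0.02 and 0.06 on the array labelled Bcl-2, and the gene of the rotating central stalk, Atp5f1c, at -0.27 and 0.05. The small stalk subunits stood at 0.01 and -0.07 for Atp5f1d and at 0.45 and -0.22 for Atp5f1e. Thus 4 of the 5 head genes were within 0.1 of 0 on the array labelled Bcl-2.

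The 4 small membrane subunits, which help ATP synthase form dimers, had medians of 0.27 and -0.26 (-0.27 and 0.26 with the signs turned), all 4 above 0 on the withdrawal array and all 4 below 0 on the other. Atp5me, subunit e, had log2 intensities of 16.75 in red and 15.99 in green on the withdrawal array, and of 16.46 in red and 16.61 in green on the array labelled Bcl-2, with ratios of 0.76 and -0.15. It was the 517th highest gene on the withdrawal array and rests on 1 probe. Atp5mg, subunit g, stood at 0.36 and -0.39, Atp5mf at 0.19 and -0.19 and Atp5mk at 0.08 and -0.33, each over 2 probes on the same side. The peripheral stalk, which holds the head still, had medians of 0.14 and -0.24, with Atp5po at 0.34 and -0.42, Atp5pf at 0.20 and -0.07, Atp5pb at 0.08 and -0.18 and Atp5pd at -0.01 and -0.30. The proton-carrying c ring is made from genes with the same mature protein, of which Atp5mc1 stood at -0.03 and 0.11 and Atp5mc2 at 0.16 and -0.12. Atp5if1, which blocks the enzyme when it would run backwards, stood at 0.32 and -0.23. Over the 16 genes the medians were 0.16 and -0.16 (-0.16 and 0.16 with the signs turned), with 12 above 0 on the withdrawal array and 12 below 0 on the array labelled Bcl-2, where centring without loess turned the median to 0.12.

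**Figure D4:**
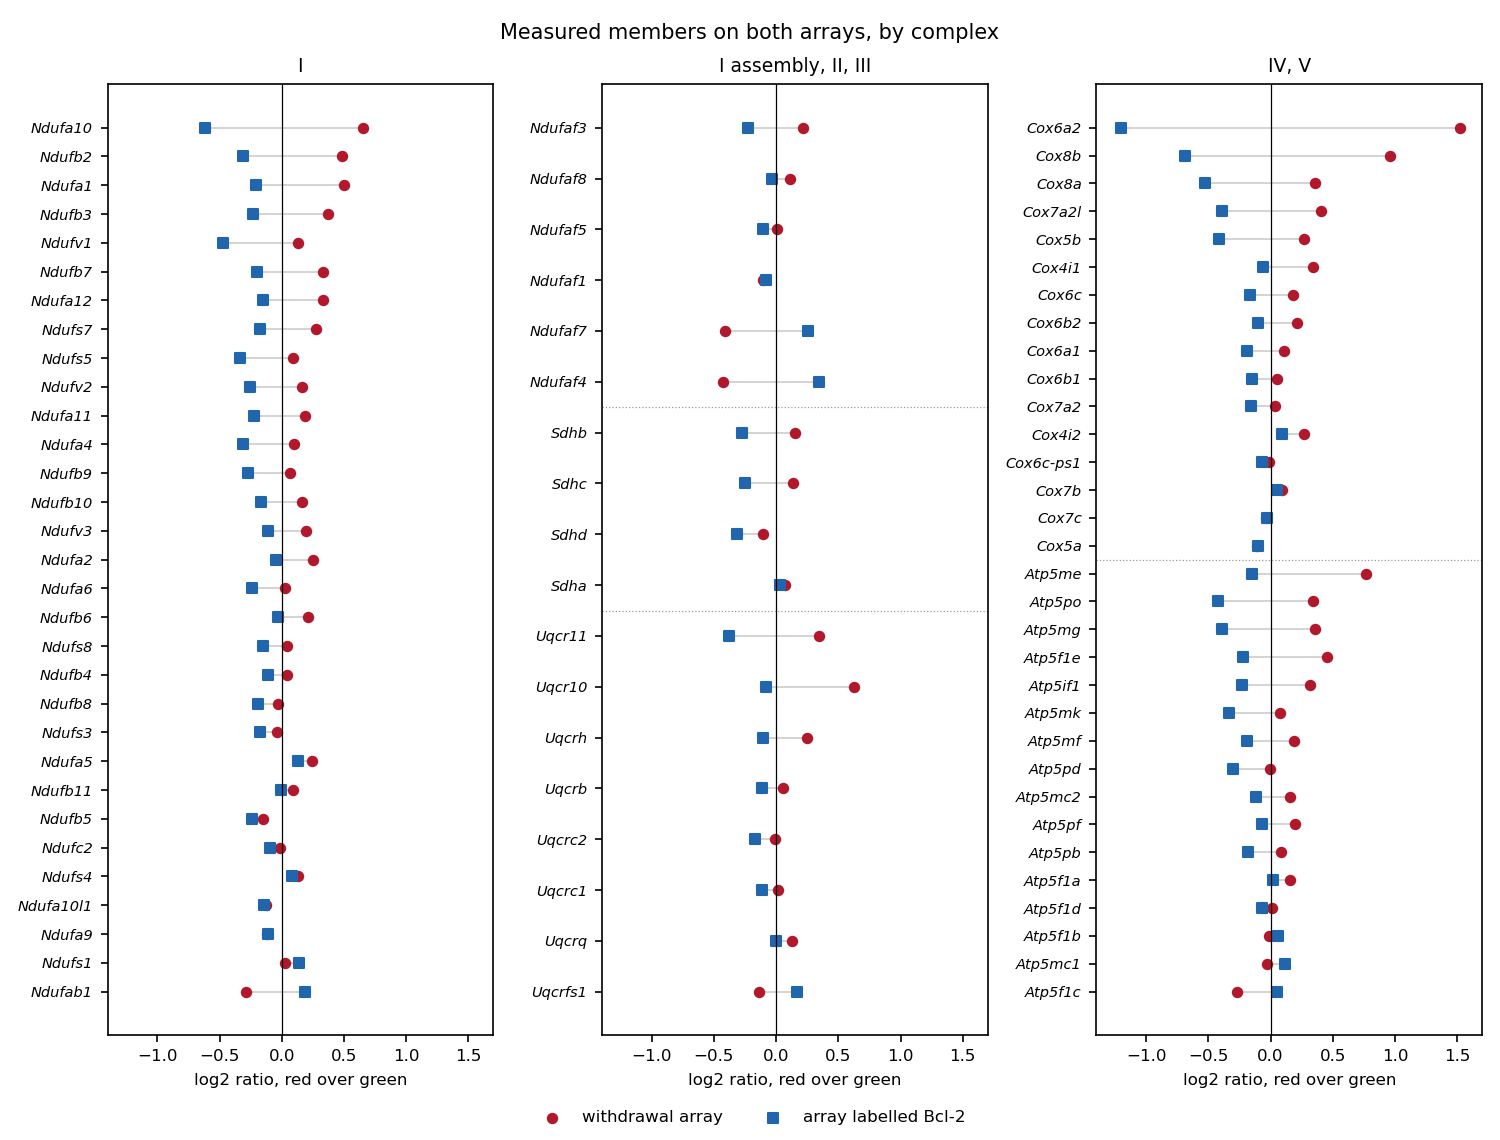
Log2 ratio of red over green (x axis) on the withdrawal array (circles) and the array labelled Bcl-2 (squares) for 81 of the 82 measured members (y axis), grouped by complex and sorted within it by the mean of the first ratio and the sign-turned second. Grey lines join the 2 values of a gene. Cox6a2 spans the widest gap, with 1.53 and -1.20, and Ndufaf4, Ndufaf7 and Ndufab1 are among the genes with circles left of their squares.

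Lists of several other mitochondrial functions had medians on the other side of 0 from the subunits on each array, taken over genes well above background in both channels. Mitochondrial protein import, which brings these nuclear-encoded subunits into the organelle, had a median of -0.16 on the withdrawal array with 15 of 20 genes below 0, and of 0.11 on the array labelled Bcl-2 with 14 of 20 above 0. The biogenesis regulators had medians of -0.12 (16 of 18 below 0) and 0.19 (13 of 18 above 0). The 67 mitochondrial ribosomal proteins, needed to translate the subunits encoded by mitochondrial DNA, had medians of -0.06 (43 below 0) and 0.03 (36 above 0). The adenine nucleotide and proton carriers had medians of -0.12 (5 of 9 below 0) and 0.08 (5 of 9 above 0). Of all genes that passed the filter, 45.8% lay below 0 on the withdrawal array and 48.2% above 0 on the other. The carriers and, on the array labelled Bcl-2, the ribosomal proteins (53.7% above 0) were near these shares. On the withdrawal array Timm8a2 passed the filter only through green, and Ppara and Ucp2 only through red, so they are not counted. With the signs turned each of these medians changes side. Cytochrome c and oxidase assembly stood at 0.03 and -0.01 over 31 genes, the citric acid cycle and pyruvate dehydrogenase at 0.03 and -0.05 over 24, and the antioxidant enzymes at 0.10 and -0.02 over 8. Of these, the antioxidant enzymes had a withdrawal median close to that of the subunits (4 of 8 genes above 0 on each array), and no difference between lists was tested.

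Within these lists 1 gene was at least 2-fold on either array, Pprc1, a coactivator of the PGC-1 family that acts with NRF1, at -1.21 and 0.69. At or below -0.5 on the withdrawal array the regulators also held Nrf1 at -0.54, and the mitochondrial DNA polymerase genes Polg at -0.52 and Polg2 at -0.59, named after their values were seen. On the array labelled Bcl-2 these stood at 0.33, 0.60 and 0.36. Ppargc1a, the coactivator PGC-1alpha, also named after its value was seen, was at 0.40 and -0.39, on the side of the subunits. The import genes past 0.5 were Tomm40, the channel of the outer membrane, at -0.61 and 0.27, and Timm8a1 at -0.55 and 0.55, likewise named after their values were seen.

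**Figure D5:**
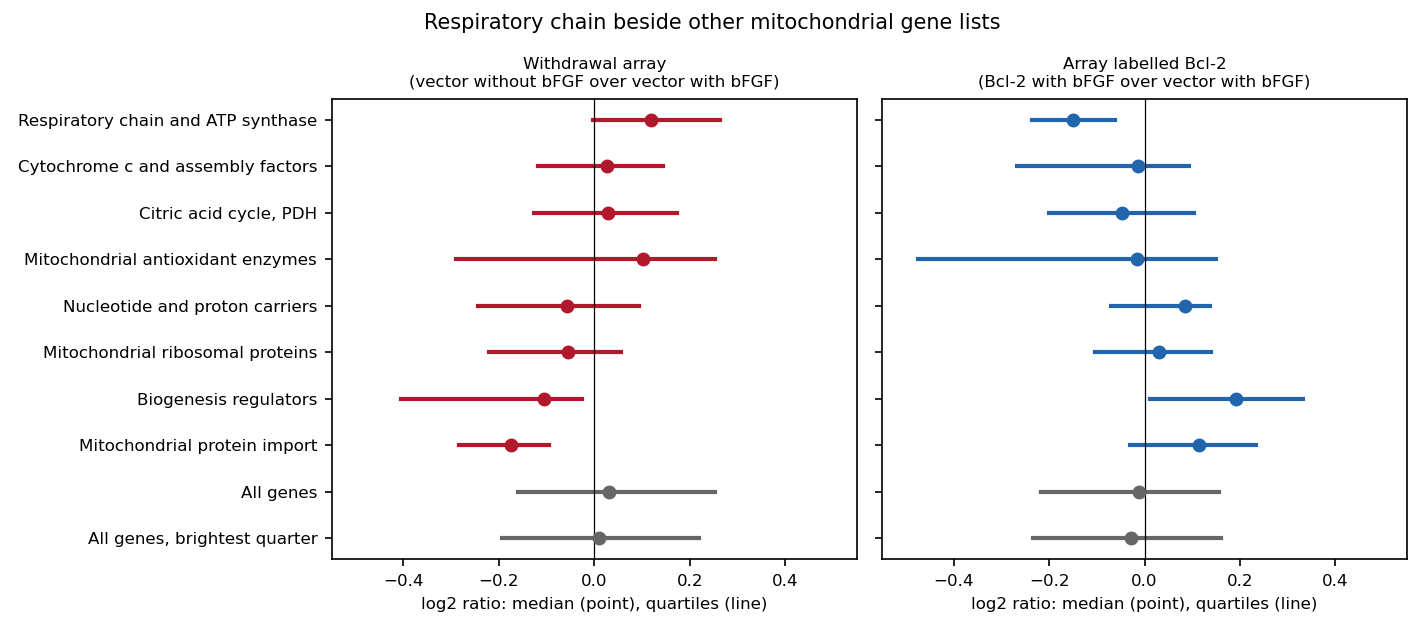
Median (points) and quartiles (lines) of the log2 ratio of red over green (x axis) for the respiratory chain and ATP synthase, for other mitochondrial gene lists and for all genes (y axis), with the withdrawal array on the left and the array labelled Bcl-2 on the right. The subunits (medians 0.12 and -0.15) lie on the other side of 0 from protein import (-0.18 and 0.11) and the biogenesis regulators (-0.10 and 0.19). Drawn are all genes that passed the filter, so Cox8b, Timm8a2, Ppara and Ucp2, which passed only through their bright channel, are included. Over genes well above background in both channels the withdrawal medians were -0.16 for protein import and -0.12 for the regulators.

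Markers of other cell types also lay off 0, some of them farther than the members. The 7 measured astrocyte markers had medians of 0.88 and -0.96, all 7 above 0 on the withdrawal array and all 7 below 0 on the array labelled Bcl-2, and the defining marker Gfap did not pass the filter. The 7 neuron markers had medians of 0.50 (7 above 0) and -0.34 (5 below 0, 2 above). Oligodendrocyte lineage markers well above background in both channels had medians of 0.16 (6 of 7 genes above 0) and -0.10 (3 of 6 below 0). The precursor markers so chosen had medians of 0.28 (7 of 9 above 0) and -0.27 (7 of 9 below 0). Of all genes, 54.2% lay above 0 on the withdrawal array and 51.8% below 0 on the other. Of the microglia and blood markers 4 of 7 passed the filter, with medians of -0.10 and 0.15, while Ptprc, Itgam and Hbb were not well above background. Of the endothelial markers 2 of 4 passed, with medians of 0.19 and -0.07. The part of cell makeup in the values of the respiratory chain was not tested.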

How the data were processed

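Total RNA was measured on 2 two-colour arrays. Per the file headers, the scanner files as deposited hold un-normalized intensity of spot and background as medians over pixels, from Feature Extraction 11.5.1.1 (protocol GE2_1105_Oct12, scanner G2505C, array design 028282, build rn4). Version 8.5.1.1 of that software stands in the submitters' processing notes. The same deposited files hold the log10 ratio of red over green, its p-value from spot noise, which was not used, and 0 or 1 flags of other kinds for outlier, saturated and well above background. The value table deposited by the authors gives, for 29782 probes, a linear ratio (column medians 0.932 and 0.944), whose scale, centring and direction the sources used here do not state. Over 28395 probes printed once and within 0.05 on the log2 scale after a constant, its first column matched the withdrawal ratio for 100% of probes. The second matched its own array for 7.06% and the product of both ratios for 100%. Where the value table is used below as an alternative, the array labelled Bcl-2 is therefore given by the second column divided by the first. Log2 values of each array were then centred on their median over probes printed once.

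Intensities were corrected by normexp with an offset of 50 (on median signals, as the files hold no mean signals) and normalized by loess within each array, with weight 0 for control spots (limma 3.58.1, R 4.3.3). Python 3.11.15, numpy 2.4.6 and pandas 2.3.3 did the rest. Outlier spots were left out (534 and 576 gene spots, of which 4 and 8 of members), 0 were saturated, repeated spots were averaged per probe, and probes stayed in if at least 50% of their spots were well above background in at least 1 channel (20328 and 19026 of 30367 probes). Probes were named through RefSeq accessions without version (GRCr8 table, names and promoters only), which named 60.4%, and a gene takes the median of its probes. Normalization was tested on simulated data in which few spots changed, all of them bright and equally many up and down. Lopsided or widespread changes were not simulated.

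A member was counted at or past 0.5 log2, or at least 2-fold. The text names the 3 highest and 3 lowest members per complex, every member at or past 0.5, complex II, isoform pairs, members whose probes disagree and list genes at least 2-fold. The values of 1 member are not reported here. Further alternatives (marker and mitochondrial lists without genes dim in 1 channel) were added after seeing the data. Further members and genes were named after their values were seen. Members, lists and motifs were chosen with earlier results of these data known, and the muscle list and the medians relative to all genes were added after seeing the data. With 1 array per comparison no test was made, and the number of arrays limits the precision. Alternatives were the Feature Extraction ratio, the value table, an offset of 10, median centring without loess, probes bright in both channels, no filter, the mean over probes and the turned sign.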

Additional observations from a re-analysis of the deposited data

How the results depend on the processing

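No paired analysis was possible because each comparison has 1 array. Under no filter on dim probes, probes bright in both channels and the mean over probes, the member medians kept their side of 0. With probes bright in both channels, Cox8b drops out, which left 4 members at or above 0.5 on the withdrawal array and 3 at or below -0.5 on the array labelled Bcl-2. In the value table setting, the array labelled Bcl-2 is the second deposited column divided by the first, not that column itself. The member median on the withdrawal array and on the array labelled Bcl-2 was 0.48 and -0.058 with median centring without loess, 0.30 and -0.31 with the value table and -0.12 and 0.15 with the sign turned. Less the median of all genes it was 0.31 and 0.015 with median centring, 0.13 and -0.20 with the Feature Extraction ratio, 0.13 and -0.20 with the value table and -0.087 and 0.14 with the sign turned. Less the median of the brightest 25% of genes it was 0.16 and -0.070 with median centring and -0.11 and 0.12 with the sign turned. The median of all genes itself stood at 0.17 and -0.07 with median centring and at 0.16 and -0.11 with the value table. On the withdrawal array, members at or above 0.5 numbered 36 with median centring, 7 with the Feature Extraction ratio, 18 with the value table and 0 with the sign turned, and those at or below -0.5 numbered 2, 1, 1 and 5 with the Feature Extraction ratio, an offset of 10, the value table and the sign turned. Members at least 2-fold higher there numbered 2 with the Feature Extraction ratio, an offset of 10 or the value table, 3 with median centring and 0 with the sign turned, and 1 was lower with the sign turned. On the array labelled Bcl-2, members at or above 0.5 numbered 1 with the Feature Extraction ratio and 4 with the sign turned, and those at or below -0.5 numbered 9 with the value table and 0 with the sign turned. Members at least 2-fold lower there numbered 2 with the Feature Extraction ratio or the value table and 0 with the sign turned, when 1 was higher. With the sign turned, the withdrawal values were -0.76 for Atp5me, -1.53 for Cox6a2, -0.96 for Cox8b, -0.65 for Ndufa10 and -0.62 for Uqcr10, and the values on the array labelled Bcl-2 were 1.20 for Cox6a2, 0.52 for Cox8a, 0.68 for Cox8b and 0.61 for Ndufa10. Those of Cox8b are set against a channel not well above background and are bounds on the size. Past 2-fold, all genes gave 263 higher and 51 lower for the withdrawal array, then 57 higher and 205 lower for the other. These counts were 887, 237, 358 and 690 with the Feature Extraction ratio, 1150, 140, 270 and 837 with the value table, 445, 91, 76 and 271 with an offset of 10, and 473, 34, 48 and 271 with median centring. At or past 0.5 the same 4 counts were 1131, 491, 362 and 891, against 1880, 1261, 1344 and 1514 with the Feature Extraction ratio, 2702, 644, 795 and 2082 with the value table, and 2267, 331, 367 and 1128 with median centring. Apart from the turned sign, the cause of these shifts was not tested. Of the 49 named members, those whose sign changed numbered 10 on each array with median centring, 8 and 7 of 48 with the value table, 5 and 3 with the Feature Extraction ratio, 0 and 1 with an offset of 10, and 1 on each array with the mean over probes. Those that moved by over 1.5-fold numbered 2 on each array with the Feature Extraction ratio, 2 of 48 with the value table and 1 on the withdrawal array with an offset of 10. Signal over background limits Cox8b, dim in 1 channel on each array, and Cox8c, dim in all.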
